A study of Rattus norvegicus with 10 samples.

Results

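miR-10a, miR-10b, miR-196a, miR-196b and miR-196c are the miRNAs of the miR-10 and miR-196 families that are encoded within the Hox clusters, and they were followed here across all 10 small RNA libraries of the study. Members were every entry of the count files whose name begins with rno-miR-10a, rno-miR-10b, rno-miR-196a, rno-miR-196b or rno-miR-196c, which gave 10 of the 723 mature miRNAs listed, both arms of 5 hairpins. Of these 10, 8 reached the minimum of 1 cpm (counts scaled to a common library total) in at least 5 libraries and were tested among 359 miRNAs, and both arms of miR-196c fell below it.

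The libraries come from female Wistar rats with collagen-induced arthritis (CIA), a joint disease raised by immunization with bovine type II collagen, which all 5 groups share, and the age of the animals is not given in the sources used here. CIA_B was sampled before therapy. MS_E was sampled 1 h after mechanical stimulation with a twirled needle and MS_A after 34 days of this therapy, repeated every other day, an arm that the labels abbreviate AP. PLA_E and PLA_A were sampled at the same times of placebo, a weekly peritoneal injection of sterile saline. Each group has 2 libraries, and nothing says that they came from separate animals, so the p-values measure only the spread between these libraries. The labels name muscle, and the study describes subcutaneous tissue around the stimulated points that includes muscle. The stimulated points lay on the lower back and on the hind leg. The study calls the sampled subcutaneous tissue dorsal, while its methods speak of tissue around the stimulated points. No label says from which point a single library was made. No untreated healthy animals were among these libraries.

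miRNAs are short RNAs that pair with messages, mainly through bases 2 to 8 of the miRNA (the seed), and repress them. The miR-10 and miR-196 genes sit inside the Hox clusters, whose genes give cells their position along the body axis, and they are transcribed in axial domains like their Hox neighbours. Hox messages are among their known targets, and miR-196 is known for directing the cleavage of the Hoxb8 message. In bulk tissue a lower level can mean fewer cells of a type or less RNA per cell, and these cannot be told apart.

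The sequences are shown first because the family members differ by single bases, so that a level of 1 member rests on telling it from the next. RefSeq (build GRCr8) held 9 of the 10 members, and miR-196a-3p is not among them. The seed is in capitals.
rno-miR-10a-5p: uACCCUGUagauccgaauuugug
rno-miR-10b-5p: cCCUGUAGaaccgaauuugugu
rno-miR-10b-3p: aCAGAUUCgauucuaggggaa
rno-miR-196a-5p: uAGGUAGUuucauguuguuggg
rno-miR-196b-5p: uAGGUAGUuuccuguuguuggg
rno-miR-196c-5p: uAGGUAGUuucguguuguuggg
The annotated start of miR-10b-5p lies 2 bases downstream of that of miR-10a-5p, so the annotated seeds differ, although the miR-10b hairpin carries the same 2 bases, UA, just before this start. Over the 21 bases that both share there is 1 difference, U12A, counted from the 5′ end of miR-10a-5p. The 3 miR-196 members have the same seed, which no other of the 693 mature miRNAs in the RefSeq table carries, and differ only at base 12, as A12C from miR-196a-5p to miR-196b-5p and A12G from miR-196a-5p to miR-196c-5p. None of the 693 shares the annotated seed of miR-10a-5p or of miR-10b-5p.

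In GRCr8 the miR-10a hairpin lies on chromosome 10 (chr10:81779709-81779818, plus strand) between Hoxb5 and Hoxb4. The miR-196c hairpin lies on the same chromosome (chr10:81727551-81727630, plus strand) between Hoxb13 and Hoxb9. The miR-10b hairpin lies on chromosome 3 (chr3:80035859-80035967, plus strand) within the annotated span of Hoxd4. The miR-196a hairpin lies on chromosome 7 (chr7:135988876-135988985, plus strand) between Hoxc10 and Hoxc9. The miR-196b hairpin lies on chromosome 4 (chr4:82661101-82661185, minus strand) between Hoxa9 and Hoxa10. The counts themselves were made by the authors on the older build rn4.

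Reads on miRNAs amounted to 1513799 in CIA_B replicate 1 and to 8926170 in MS_E replicate 1, with the other 8 libraries between them, and 3 counts correspond to 0.366 to 2.60 cpm. All levels given here and in what follows, unless said to be on library totals, are cpm scaled by the TMM factors of edgeR, which set the bulk of the miRNAs to a common level across libraries. In earlier results of these data the libraries had divided by miR-1-3p, a miRNA of muscle fibres, with 1 high and 1 low library in every group. miR-1-3p stood at 80400 to 122962 cpm in CIA_B replicate 1, MS_E replicate 2, PLA_E replicate 1, MS_A replicate 2 and PLA_A replicate 1, and at 10115 to 15564 cpm in the other 5. The 4 skeletal muscle miRNAs (miR-1-3p, miR-133a-3p, miR-133b-3p, miR-206-3p) were detected in every library, in sum between 83894 and 268478 cpm. Of these, miR-133a-3p ran against the division in PLA_E (70505 cpm with high and 118939 with low miR-1-3p) and PLA_A (89171 and 139360). In the other groups it was higher in the library with high miR-1-3p. The sum of the list was 182298 to 268478 cpm in the libraries with high and 83894 to 159965 cpm in those with low miR-1-3p. The sum of 5 fibroblast and smooth muscle miRNAs went the other way, at 28360 to 55676 cpm in the libraries with high and 71159 to 103848 cpm in those with low miR-1-3p, but it is nearly all miR-143-3p, and miR-145-5p of the same list was higher in the library with high miR-1-3p in every group. The 8 epithelial miRNAs summed to 487 cpm in MS_E replicate 1 and to at most 139 elsewhere, with miR-200b-3p, miR-200c-3p and miR-429 at 0 in at least 1 library. The 5 leukocyte miRNAs found in the files summed to 14583 cpm in PLA_A replicate 1 and to at most 3401 elsewhere. This sum came mainly from miR-142-5p (5854 cpm) and miR-150-5p (6220). Of the same list miR-142-3p was also highest there, but miR-223-3p (43.3) was below its median of 48.7 cpm. miR-146a-5p (1829) was below its level in MS_E replicate 1 (2815). In MS_E replicate 1 the 4 endothelial miRNAs summed to 4393 cpm, against 8563 to 14824 in the other libraries, through both arms of miR-126a, while miR-221-3p and miR-222-3p of that list were at their highest there. MS_E replicate 1, which holds the highest miR-10b-5p level, also stood apart in 4 miRNAs of no list, chosen after their values were seen as those of at least 100 cpm and over 10 times the highest other library. These were miR-34c-5p (1496 cpm, at most 17.6 elsewhere), miR-871-3p (990, at most 0.312), miR-202-5p (768, at most 0.182) and miR-449a-5p (258, at most 3.62), and their part in the results was not tested. By the same rule PLA_A replicate 1 stood apart in both arms of miR-142, a miRNA of blood cells, and the other 8 libraries in none. The 2 slow-fibre miRNAs ran from 56.5 to 1025 cpm and the 2 erythroid miRNAs that matched from 15.7 to 84.0 cpm.

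miR-10b-5p was the most abundant miRNA of the tissue. Of all miRNA reads it took 34.5% and 21.9% (replicates 1 and 2) before therapy, 51.8% and 17.8% in MS_E against 10.0% and 17.0% in PLA_E, and 37.2% and 10.2% in MS_A against 11.1% and 12.2% in PLA_A. It ranked at the top in 6 libraries and at 3 or 4 in PLA_E replicate 1, MS_A replicate 2 and both PLA_A libraries, where miR-22-3p, miR-133a-3p or miR-1-3p stood above it. miR-10a-5p took between 1.97% of the reads, in MS_A replicate 2, and 6.02%, in MS_E replicate 1, and ranked between 3 and 10. Together the 2 miRNAs thus supplied between 12.2% and 57.8% of a library. The 95% Wilson intervals of the miR-10b-5p shares are 0.0446 to 0.151 percentage points wide and cover counting error only.

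**Figure D1:**
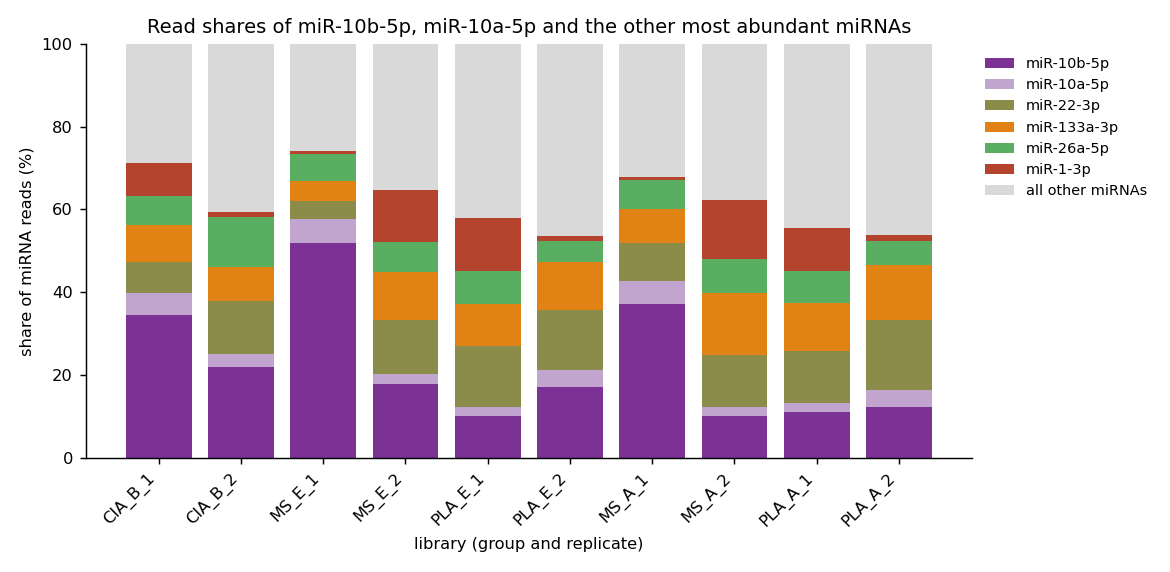
Share of miRNA reads (%, vertical axis) in each of the 10 libraries, stacked for miR-10b-5p, miR-10a-5p, the other 4 of the 5 most abundant miRNAs by mean share (miR-22-3p, miR-133a-3p, miR-26a-5p, miR-1-3p) and all remaining miRNAs. miR-10b-5p fills 51.8% of MS_E replicate 1 and 10.0% of PLA_E replicate 1, and miR-1-3p is thin in 5 libraries and thick in the other 5.

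The TMM-scaled levels of miR-10b-5p were 452283 and 205315 cpm before therapy, 713499 and 143090 in MS_E against 70918 and 174440 in PLA_E, and 551575 and 87816 in MS_A against 84334 and 127036 in PLA_A. The levels spanned 10.1-fold, from PLA_E replicate 1 to MS_E replicate 1. The means came in the order MS_E (428295 ± 403340, SD, n = 2), CIA_B (328799 ± 174632), MS_A (319695 ± 327927), PLA_E (122679 ± 73201) and PLA_A (105685 ± 30195), and no neighbours in this order differed by more than their spread. In the stimulated groups 1 library was high and the other low, and the low one lay within the range of the placebo group of the same time at both times. Both placebo groups lay below both CIA_B libraries, in comparisons where 21.2% (PLA_E) and 36.5% (PLA_A) of all 359 miRNAs did not overlap.

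miR-10a-5p followed a like course at a lower level. Before therapy it stood at 68508 and 30912 cpm, at 1 h at 82929 and 19117 in MS_E against 15943 and 43444 in PLA_E, and at 34 days at 79480 and 16973 in MS_A against 16715 and 42739 in PLA_A. Its means ran from 51023 ± 45122 in MS_E to 29693 ± 19446 in PLA_E (SD, n = 2), and all 5 groups overlapped. Over the 10 libraries the log2 levels of miR-10a-5p and miR-10b-5p had r = 0.93, a description over points that share library totals, scaling factors and the division by miR-1-3p.

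**Figure D2:**
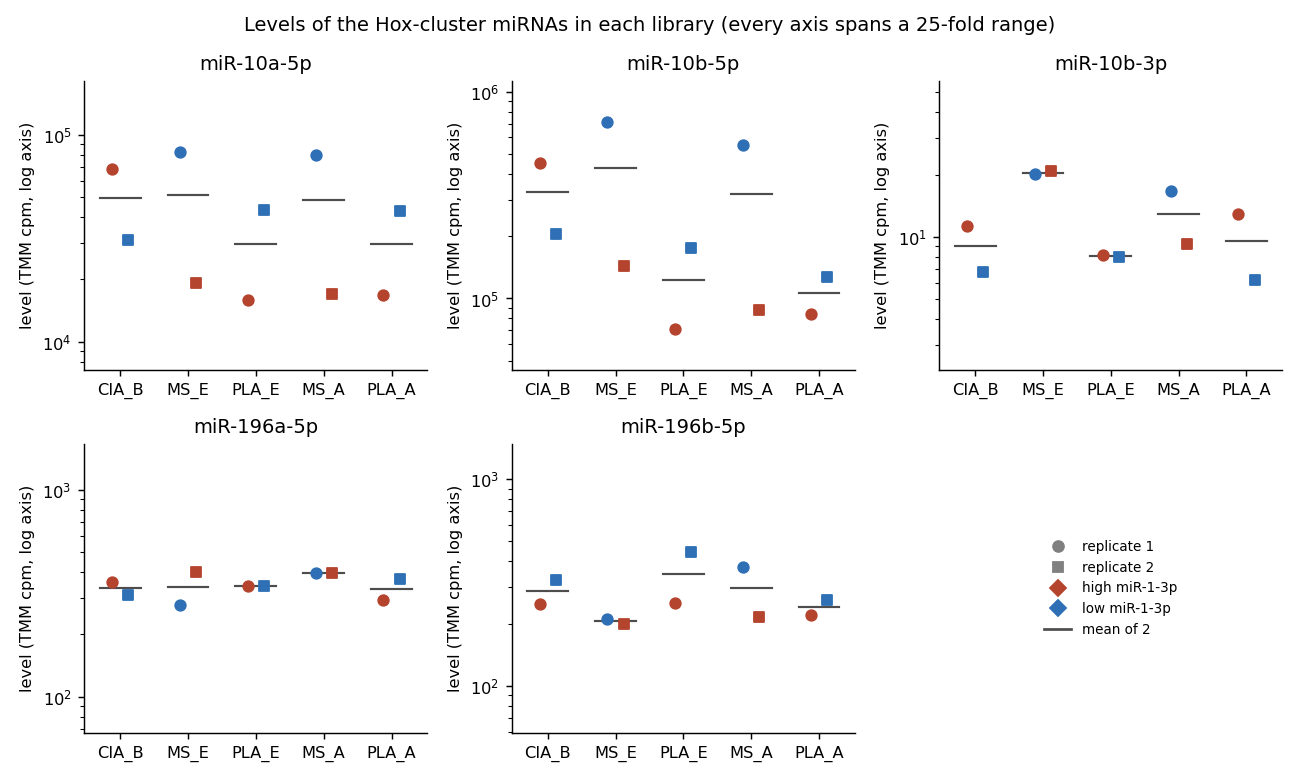
Level of miR-10a-5p, miR-10b-5p, miR-10b-3p, miR-196a-5p and miR-196b-5p in each library (TMM cpm on log axes that span equal ranges), by group, with replicates 1 and 2 as circles and squares, libraries with high and low miR-1-3p in red and blue, and the arithmetic mean of 2 as a bar. miR-10b-5p varied 10.1-fold and miR-196a-5p 1.45-fold, and in the 4 groups after therapy miR-10a-5p and miR-10b-5p were lower in the library with high miR-1-3p.

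Both miRNAs moved with the miR-1-3p division in the 4 groups after therapy and against it in CIA_B. In MS_E, PLA_E, MS_A and PLA_A the library with low miR-1-3p held the higher level of each, while in CIA_B the library with high miR-1-3p did. miR-10b-5p had a median of 87816 cpm (70918 to 452283) in the 5 libraries with high miR-1-3p and of 205315 cpm (127036 to 713499) in the 5 with low miR-1-3p, and the part of the division in the differences between groups was not tested beyond the model term given below.

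The design asks whether levels changed from before therapy and whether stimulation and placebo differed. A miRNA was called when its unadjusted p in the quasi-likelihood test of edgeR was under 0.05 and its change over 2-fold, which are the thresholds that the study chose. Of the 8 members none was called in MS_E, PLA_E, MS_A or PLA_A against CIA_B, where 6.41%, 0.557%, 1.11% and 6.96% of all 359 miRNAs were, none in MS_A against PLA_A, where 1.95% were, and 1, miR-10b-3p, in MS_E against PLA_E, where 3.9% were. At a Benjamini-Hochberg adjusted p under 0.05 the called share of all miRNAs was 0% in each comparison. The smallest adjusted p of a 5p arm, or of miR-10b-3p in MS_E against PLA_E, was 0.668 with edgeR, 0.548 with DESeq2 and 0.781 with limma-voom, and the latter 2 tools called miR-10b-3p both in MS_E against PLA_E and in MS_E against CIA_B and no other member. The median log2 fold change of the 8 members lay between -0.04 (PLA_E against CIA_B) and 0.28 (MS_A against PLA_A), beside medians of all miRNAs between -0.02 and 0.11 over the same 6 comparisons.

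Among the 4 main arms miR-10b-5p had the widest fold changes in the placebo groups against CIA_B and between the arms, but not in MS_E or MS_A against CIA_B. Its log2 fold change was -1.42 (SE 1.01, 95% interval -3.70 to 0.85) in PLA_E and -1.64 (SE 1.01, -3.93 to 0.65) in PLA_A against CIA_B, with unadjusted p of 0.191 and 0.140 and edgeR adjusted p of 0.994 and 0.668. In MS_E and MS_A it was 0.38 (SE 0.99) and -0.04 (SE 0.99), with intervals from -1.85 to 2.62 and from -2.27 to 2.19. Against placebo it was 1.804 (SE 1.02, -0.50 to 4.10) at 1 h and 1.60 (SE 1.01, -0.69 to 3.88) at 34 days, with unadjusted p of 0.110 and 0.149 and edgeR adjusted p of 0.832 and 0.999. None of these passed the test, and every interval includes 0.

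Single libraries set these values. Without MS_E replicate 1 the log2 difference of miR-10b-5p between MS_E and PLA_E was 0.17, and without MS_E replicate 2 it was 2.54 and called by edgeR (unadjusted p = 0.0356, adjusted p = 0.503, beside adjusted p from 0.503 to 0.994 over the settings tried). Without MS_A replicate 1 the difference between MS_A and PLA_A turned to -0.23, and without CIA_B replicate 1 the change of PLA_A was -1.03. Leaving out CIA_B replicate 1 also took the change of PLA_E to -0.83, while leaving out its own replicate 1 or 2 gave -0.91 or -2.16. Within the libraries with low miR-1-3p the stimulated library was 4.09 times (1 h) and 4.34 times (34 days) above the placebo library, and within those with high miR-1-3p 2.02 times and 1.04 times. Against CIA_B the placebo libraries with high miR-1-3p were lower by log2 ratios of -2.67 (1 h) and -2.42 (34 days), and those with low miR-1-3p by -0.24 and -0.69. With the division as a term in the edgeR model, miR-10b-5p was called in PLA_E (-1.88, unadjusted p = 0.0491, adjusted p = 0.992) and in PLA_A (-1.95, unadjusted p = 0.0405, adjusted p = 0.316), where adjusted p over all settings ran from 0.952 to 1 and from 0.316 to 0.994.

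miR-10a-5p changed by less than its error in all 6 comparisons. Its log2 fold changes were 0.04 and -0.04 in MS_E and MS_A and -0.74 in both placebo groups against CIA_B, and 0.78 and 0.70 between the arms at 1 h and 34 days, each with an SE of 0.95 to 0.96.

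**Figure D3:**
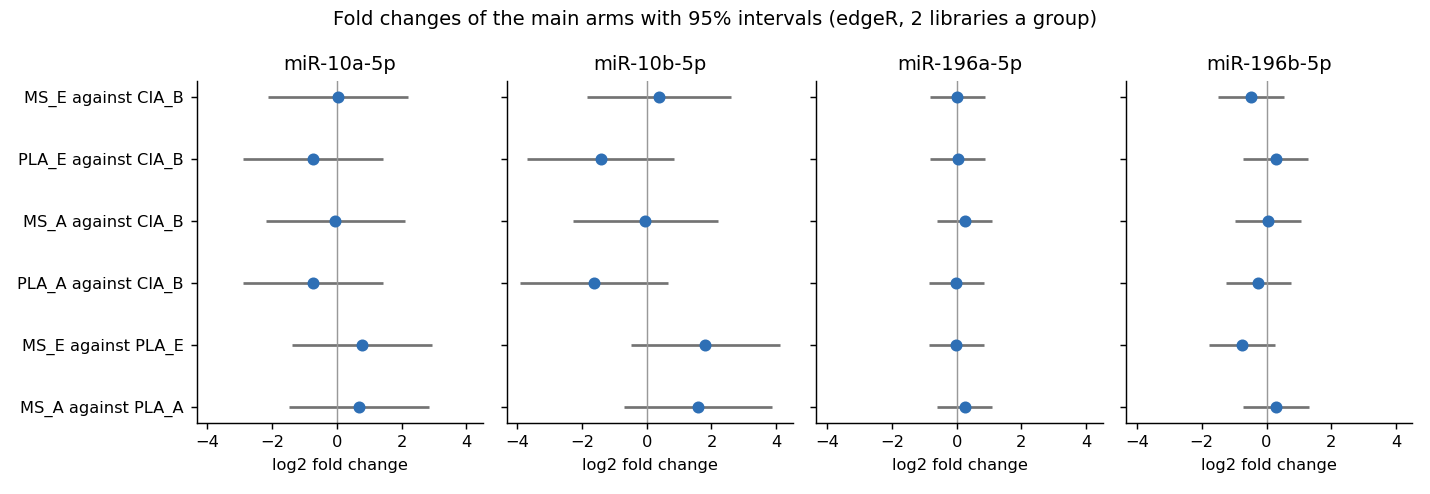
Log2 fold changes (points) with 95% intervals (lines) of miR-10a-5p, miR-10b-5p, miR-196a-5p and miR-196b-5p in the 6 comparisons, from the edgeR fit on all 10 libraries. Every interval includes 0, and those of miR-10b-5p reach from -3.93 to 4.10 in all, against -0.85 to 1.10 for miR-196a-5p.

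The ratio of miR-10a-5p to miR-10b-5p within a library needs no scaling and asks whether the 2 relatives moved together. It was 0.151 in both CIA_B libraries. At 1 h it was 0.116 and 0.134 in MS_E against 0.225 and 0.249 in PLA_E, and at 34 days 0.144 and 0.193 in MS_A against 0.198 and 0.336 in PLA_A. The 2 CIA_B libraries thus had nearly the same ratio although their miR-10b-5p shares differed, and every placebo library lay above every stimulated one. On the log2 scale the 4 stimulated libraries averaged -2.79 ± 0.310 and the 4 placebo libraries -2.02 ± 0.326 (SD, n = 4 each). This difference of -0.78 had an exact two-sided permutation p of 0.0286, the smallest that 4 libraries against 4 allow, and an adjusted p of 0.429 over the 15 ratio and share tests made. Leaving out any library of these groups kept the difference between -0.92 and -0.63, with an exact permutation p of 0.0571, the smallest for 3 against 4. Over the settings tried the adjusted p ran from 0.429 to 0.857. The ratio was 0.134 to 0.225 in the libraries with high miR-1-3p and 0.116 to 0.336 in those with low miR-1-3p, so it did not follow that division.

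Reads from 2 miRNAs that differ by 1 base can be split by the counting, and the part of this in the ratio was not tested. In the miR-196 family the reads of miR-196c-5p beside those of miR-196a-5p are given below. They bear on that pair only and set no limit for miR-196a-5p against miR-196b-5p.

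**Figure D4:**
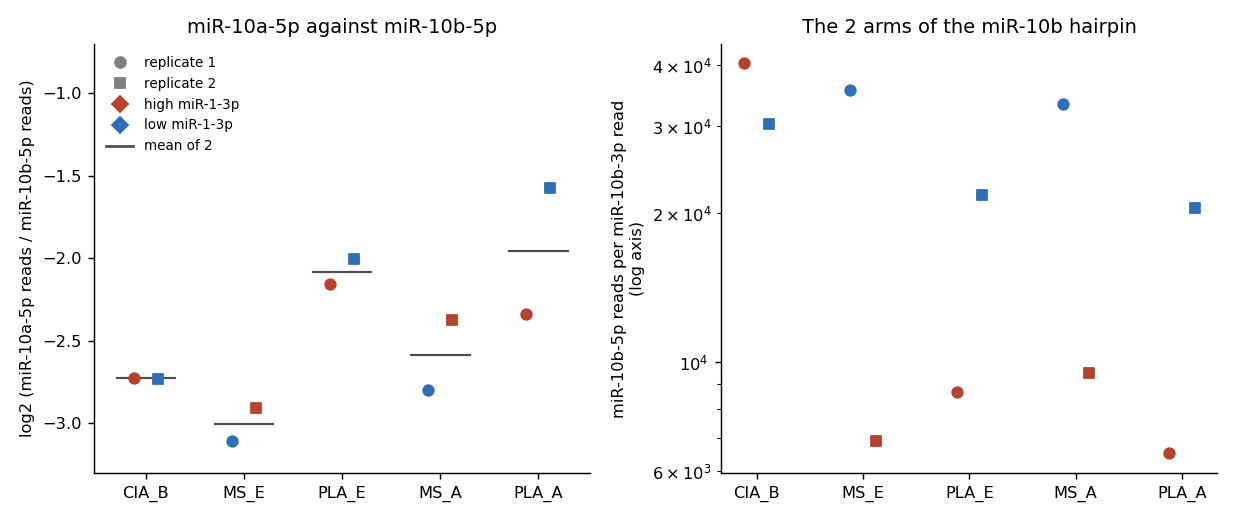
Left: log2 ratio of miR-10a-5p to miR-10b-5p reads in each library, by group, with the mean of 2 as a bar; the 4 placebo libraries (-2.33 to -1.57) sit above the 4 stimulated ones (-3.10 to -2.37). Right: miR-10b-5p reads per miR-10b-3p read on a log axis; libraries with high miR-1-3p (red) sit between 6512 and 9481 except CIA_B replicate 1 at 40206, and those with low miR-1-3p (blue) at 20498 or more.

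After adjustment no difference passed for this ratio or for the other 4 measures of this kind. The miR-10b-5p share averaged 29.3% ± 18.8 in the stimulated and 12.6% ± 3.06 in the placebo libraries (SD, n = 4 each), a difference of 16.7 percentage points with an exact permutation p of 0.171. Reads of miR-10b-5p per read of miR-196a-5p ran from 208 in PLA_E replicate 1 to 2572 in MS_E replicate 1. All 14 other tests of the family, which also took 34 days against 1 h and the 8 libraries after therapy against the 2 before, had adjusted p of 0.725 or more.

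The passenger arms, the strands of the hairpins that are mostly discarded, were scarce. The 10 libraries held 644 reads of miR-10b-3p beside 12700579 of miR-10b-5p, and 220 of miR-10a-3p beside 2001446 of miR-10a-5p. miR-10b-3p stood at 11.2 and 6.76 cpm before therapy, at 20.1 and 20.8 in MS_E against 8.17 and 7.9998 in PLA_E, and at 16.6 and 9.26 in MS_A against 13.0 and 6.20 in PLA_A. In MS_E against PLA_E the groups did not overlap for miR-10b-3p and miR-196b-5p, 2 of 8 members beside 28.1% of all miRNAs. On this scale both MS_E libraries were above all 8 others, and the 2 libraries of MS_E and of PLA_E lay close to each other, unlike those of miR-10b-5p. On library totals this was lost, with levels of 14.6 and 25.9 cpm in the 2 MS_E libraries and of 17.0 in PLA_A replicate 1 between them.

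miR-10b-3p was the only member called, with 20.4 ± 0.492 cpm in MS_E and 8.09 ± 0.123 in PLA_E (SD, n = 2), a log2 difference of 1.30 with an unadjusted p of 0.0417 and an edgeR adjusted p of 0.832. It rests on at least 130 reads in each MS_E library and on 61 and 29 in PLA_E. In MS_E against CIA_B its log2 fold change was 1.18 with an unadjusted p of 0.0632 (edgeR), and at 34 days against placebo 0.42 with an unadjusted p of 0.457. The difference in MS_E from PLA_E was 2.51-fold and 2.54-fold within the libraries with low and high miR-1-3p. The call is lost with only the 2 groups in the fit (1.38, with an unadjusted p of 0.0608 by edgeR), on library totals alone, where PLA_E held 11.6 and 7.78 cpm (log2 difference 1.03, with an unadjusted p of 0.163), and in each fit without an MS_E or PLA_E library (1.26 to 1.31, with unadjusted p of at least 0.0726 by edgeR).

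The levels of the 2 arms of the miR-10b hairpin were thus not in a fixed proportion. Per read of miR-10b-3p there were 40206 and 30354 reads of miR-10b-5p before therapy, 35555 and 6892 in MS_E against 8676 and 21806 in PLA_E, and 33217 and 9481 in MS_A against 6512 and 20498 in PLA_A. CIA_B replicate 1 rests on 13 reads of miR-10b-3p. In the 4 groups after therapy the library with high miR-1-3p had fewer 5p reads per 3p read than its partner, and miR-10a showed the same order, from 2797 to 3827 reads in the 4 libraries with high miR-1-3p and from 11724 to 28275 in their partners. miR-10a-3p itself stood between 2.21 and 5.98 cpm and passed no test.

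miR-196a-5p was a miRNA of middle abundance whose level, on the TMM scale, was nearly the same in every library, while on library totals it ran from 201 to 501 cpm and its spread ranked 44 of 359. Before therapy it stood at 359 and 309 cpm, at 1 h at 277 and 402 in MS_E against 342 and 343 in PLA_E, and at 34 days at 398 and 394 in MS_A against 294 and 370 in PLA_A, a range of 1.45-fold. Its means lay between 332 ± 53.5 in PLA_A and 396 ± 2.43 in MS_A (SD, n = 2), in the ascending order PLA_A, CIA_B, MS_E, PLA_E, MS_A, and only MS_A lay above both libraries of its neighbour in that order. For that pair the share of all miRNAs without overlap was not counted, and in the 6 comparisons it was 20.1% to 36.5%. MS_A also lay above both CIA_B libraries, where miR-196a-5p was the 1 member of 8 without overlap, beside 27% of all miRNAs. On the log2 scale its SD over the 10 libraries was 0.19, the second smallest of the 359 tested miRNAs, whose median SD was 0.66, while that of miR-10b-5p was 1.19 (rank 296) and that of miR-10a-5p 0.96 (rank 280). Its log2 fold changes lay between -0.01 and 0.25, each with an SE of 0.37, and the 95% intervals of all 6 stayed between -0.85 and 1.10.

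miR-196b-5p was less even. Before therapy it stood at 249 and 324 cpm, at 1 h at 211 and 199 in MS_E against 253 and 443 in PLA_E, and at 34 days at 376 and 216 in MS_A against 221 and 260 in PLA_A. Both MS_E libraries were below both of CIA_B and both of PLA_E. Against CIA_B, 3 of the 8 members did not overlap in MS_E (miR-10b-3p higher, miR-196a-3p and miR-196b-5p lower), beside 31.5% of all miRNAs. The log2 difference of miR-196b-5p between MS_E and PLA_E was -0.76 (SE 0.45, 95% interval -1.78 to 0.25), with an unadjusted p of 0.124 and an edgeR adjusted p of 0.832, and it passed the test in none of the comparisons. The means ran in the order PLA_E (348 ± 134, SD, n = 2), MS_A (296 ± 114), CIA_B (287 ± 52.7), PLA_A (241 ± 27.8) and MS_E (205 ± 9.13), and of the neighbours only PLA_A and MS_E had levels that did not overlap. The share of all miRNAs without overlap was not counted for this pair either.

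Between 0.494 (MS_E replicate 2) and 1.29 (PLA_E replicate 2) reads of miR-196b-5p were found per read of miR-196a-5p. In the 5 libraries with high miR-1-3p the ratio was 0.494 to 0.751, and in the 5 with low miR-1-3p 0.704 to 1.29. Between stimulated and placebo libraries its log2 values, -0.59 ± 0.433 and -0.25 ± 0.412 (SD, n = 4 each), overlapped and had an exact permutation p of 0.314.

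The 3p arms of miR-196 were nearer in level to their 5p arms than those of the miR-10 hairpins. miR-196a-3p had 353 reads beside 18805 of miR-196a-5p, and stood at 6.06 and 4.41 cpm in CIA_B and at 7.97 and 12.2 in PLA_A, a log2 fold change of 0.94 with an unadjusted p of 0.157 by edgeR. miR-196b-3p had 112 reads in all, between 0.772 and 4.42 cpm. It had 2 and 6 reads in CIA_B, 5 and 20 in MS_A and 12 and 15 in PLA_A. In CIA_B replicate 1 it stood at 1.73 cpm, where 3 counts would correspond to 2.60 cpm. Its lack of overlap, given next, rests on these few reads. In PLA_A both libraries of each 3p arm were above both of CIA_B and both of miR-10b-5p below, so that 3 of the 8 members did not overlap there, beside 36.5% of all miRNAs. In PLA_E against CIA_B it was 1 of 8, miR-10b-5p (lower), beside 21.2%, and in MS_A against PLA_A 2 of 8, miR-196a-5p (higher) and miR-196b-3p (lower), beside 20.1%.

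miR-196c-5p, the remaining miRNA with this seed, had 23 reads in 8 of the 10 libraries and none in CIA_B replicate 1 or MS_A replicate 1, where 3 counts would correspond to 2.60 and 0.712 cpm. This is 0.122% of the reads of miR-196a-5p, from which it differs by 1 base, and at most 0.278% in any library. miR-196c-3p had 2 reads, both in MS_E replicate 2.

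Neither the test for any difference among the 5 groups nor the interaction of arm and time called a member at an unadjusted p under 0.05, beside 4.18% and 3.34% of all miRNAs (edgeR). miR-10b-3p and miR-10b-5p had the smallest unadjusted p in the first, of 0.166 and 0.265 (edgeR). miR-196b-5p had the smallest in the second, with a stimulated minus placebo difference that was 1.06 log2 units higher at 34 days than at 1 h (95% interval -0.37 to 2.49), with an unadjusted p of 0.128 and an edgeR adjusted p of 0.993.

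Because miR-10b-5p takes up to 51.8% of a library, every other miRNA is squeezed into what remains when levels are expressed per total reads. The reads left for all other miRNAs were 48.2% of the library in MS_E replicate 1, 62.8% in MS_A replicate 1 and 65.5% in CIA_B replicate 1, against 90.0% in PLA_E replicate 1. The TMM factors, of which a low one raises the levels of a library, were 0.726, 0.675 and 0.763 in the first 3 and 1.41 in the last. They did not keep to this order elsewhere, as the factor was 0.959 in PLA_A replicate 2 with 87.8% left, 0.973 in PLA_E replicate 2 with 83.0%, 1.07 in CIA_B replicate 2 with 78.1% and 1.25 in MS_E replicate 2 with 82.2%. Dividing by library totals alone, the median log2 fold change of the 351 other tested miRNAs was 0.41 in PLA_E and 0.40 in PLA_A against CIA_B, and -0.23 and -0.34 in MS_E and MS_A against placebo. With TMM it was 0.07, 0.11, 0.03 and -0.02. The share of these miRNAs above 0 moved from 80.3% to 55.3% in PLA_E against CIA_B, and from 25.1% to 47.0% in MS_A against PLA_A.

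Taking miR-10b-5p alone out of the totals removed part of this shift. In PLA_E and PLA_A against CIA_B the median then was 0.16 and 0.11, and in MS_A against PLA_A -0.15, while in MS_E against CIA_B it rose from 0.24 to 0.31 and in MS_E against PLA_E it changed sign, from -0.23 to 0.15. TMM factors computed with and without miR-10b-5p gave medians from -0.02 to 0.11 and from 0.00 to 0.11 in the 6 comparisons, and the TMM method by its construction leaves out the miRNAs that differ most between libraries. Upper-quartile factors moved the median most in the other direction, to -0.16 in PLA_A against CIA_B and 0.35 in MS_A against PLA_A.

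**Figure D5:**
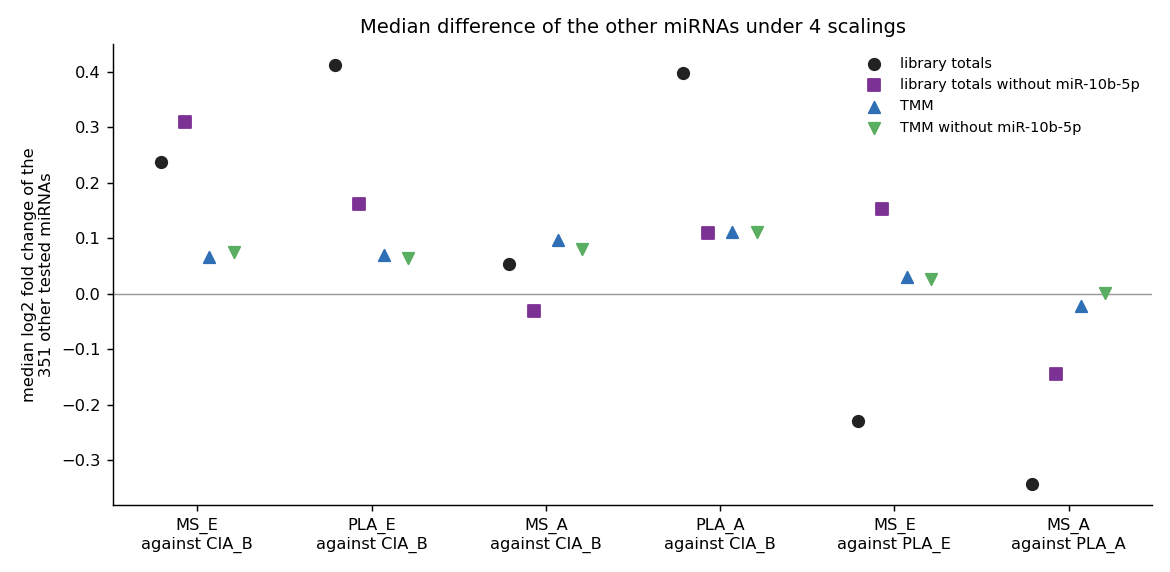
Median log2 fold change of the 351 tested miRNAs that are not members, in the 6 comparisons, under 4 ways of scaling (symbols). On library totals (black) the medians run from -0.34 to 0.41, and with TMM factors (blue, green) from -0.02 to 0.11.

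The calls across all miRNAs followed the scaling. In PLA_A against CIA_B 17 miRNAs were called higher and 8 lower with TMM, 20 and 3 on library totals, 11 and 20 on totals without the 10 most abundant miRNAs, and 7 and 21 with upper-quartile factors. In MS_E against PLA_E the 11 higher and 3 lower with TMM became 5 and 7 on library totals and 15 and 1 on totals without miR-10b-5p. In MS_E against CIA_B they were 19 and 4 with TMM and 14 and 5 on library totals, and in MS_A against PLA_A 1 and 6 with TMM, 0 and 8 on library totals and 6 and 3 with upper-quartile factors. In PLA_E and MS_A against CIA_B no more than 4 miRNAs were called under any of the 7 scalings.

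The spread of each main arm depended on the scaling. The SD of the log2 level ran from 0.61 on library totals to 0.98 with upper-quartile factors for miR-10a-5p, and from 0.85 to 1.21 under the same scalings for miR-10b-5p. On library totals miR-196a-5p was lowest in MS_E replicate 1 and highest in MS_E replicate 2, with an SD of 0.42 log2 units, while on totals without miR-10b-5p the SD was 0.20 (rank 5), with DESeq2 size factors 0.17 (rank 1) and with upper-quartile factors 0.32 (rank 24). The evenness of miR-196a-5p thus belongs to a scale on which the bulk of miRNAs is level. Its fold changes changed sign with the scaling in 4 of the 6 comparisons and those of miR-196b-5p in 3, all of them uncalled. The direction of miR-10b-5p held under all 7 scalings in all 6 comparisons. Its log2 values ran from -1.91 to -1.06 in the placebo groups against CIA_B and from 1.03 to 2.03 against placebo, each relative to the medians above. In MS_E and MS_A against CIA_B they ran from 0.30 to 0.68 and from -0.25 to -0.04. Leaving out single libraries changed the sign in both of these and in MS_A against PLA_A.

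By the likeness of log2 levels over the 10 libraries, which share totals, scaling and the miR-1-3p division, miR-351-5p was nearest to both miR-10a-5p (r = 0.94) and miR-10b-5p (r = 0.93), followed by miR-148b-3p (0.88 and 0.91) and miR-191a-5p (0.88 and 0.86). miR-351-5p ran from 211 cpm in PLA_E replicate 1 to 786 in MS_E replicate 1, the same 2 libraries that held the extremes of miR-10b-5p. It carries the seed of miR-125a-5p and miR-125b-5p, 2 relatives of miR-10 in sequence. Nearest to miR-196a-5p were miR-1839-3p (r = 0.81), miR-133a-5p (0.77) and miR-30c-5p (0.75), and to miR-196b-5p miR-190b-5p (0.88), miR-30c-2-3p (0.87) and miR-27b-5p (0.86).

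The miRNAs related to miR-10 by sequence but encoded outside the Hox clusters (miR-99a-5p, miR-99b-5p, miR-100-5p, miR-125a-5p and miR-125b-5p) were much scarcer than miR-10b-5p. Their levels lay between 361 and 5908 cpm, and 0 of the 5 were called in any of the 6 comparisons. miR-99b-5p came nearest, at 5908 and 4533 cpm in CIA_B and at 2697 and 1386 in MS_E, a log2 fold change of -1.35 with an unadjusted p of 0.0541 and an edgeR adjusted p of 0.722. miR-125a-5p was the most even, within 1.66-fold over the libraries. miR-615, the remaining miRNA of the HoxC cluster, had between 1 and 6 reads per library and was not tested.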

How the data were processed

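Small RNA of 10 rat tissue libraries was prepared by the authors with the TruSeq small RNA kit and sequenced on a HiSeq instrument. They demultiplexed the reads with CASAVA 1.8, trimmed adapters, discarded reads under 18 bases, aligned the rest to rn4 and the rat sequences of miRBase 18 with miRDeep2, and deposited whole counts per miRNA and library without normalization. Another 20 value columns, in a table covering the series, match no label and were left out. Groups come from the labels.

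The largest count over precursors was taken for each mature miRNA. TMM scaling and quasi-likelihood testing used edgeR 4.0.16 (R 4.3.3). The fit took all 10 libraries, a prior count of 2 and the 359 miRNAs that reached 1 cpm in 5 or more libraries. The unadjusted threshold of 0.05 with a 2-fold change is that of the study, and Benjamini-Hochberg adjustment was over all 359. Ratios were tested by exact two-sided permutation and adjusted over 15 tests. With 2 libraries against 2 the smallest such p is 0.333, so single groups were not tested this way. The edgeR step recovered large changes planted in counts simulated with its own fitted spread and with the scaling given. This check therefore does not cover the scaling or outlying libraries. How often changes of the size seen for the members would be found is not given. Libraries of a group were not duplicates (chi-square of 1562 to 7794 for each degree of freedom). Sequences and neighbours were read from RefSeq tables. Alternatives were other scalings, DESeq2, limma-voom, other filters, fewer libraries, a replicate block, a miR-1 division term and summed precursors. Python 3.11.15, pandas 2.3.3, scipy 1.17.1 and matplotlib 3.10.9 made the tables and figures.

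The members, the marker lists and the rule for named miRNAs (all members, miR-615, 5 relatives of miR-10, the 3 miRNAs most correlated with each main arm, and the 5 most abundant) were chosen with earlier results of these data known. The miRNAs miR-155-5p and miR-486 of the marker lists are not analysed here.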

Additional observations from a re-analysis of the deposited data

Results flagged for a closer look

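For miR-10b-3p the fold changes against CIA_B at 1 h differed between stimulation and placebo by 1.30 on the log2 scale (MS_E minus PLA_E, both against the same CIA_B libraries), with an unadjusted p of 0.0417 and an edgeR adjusted p of 0.832. Neither change passed the test by itself in the main fit (1.18 in MS_E, with an unadjusted p of 0.0632, and -0.11 in PLA_E, with an unadjusted p of 0.844, by edgeR). The alternatives that called the change in MS_E are listed below. Both MS_E libraries were higher than both PLA_E libraries, at 20.1 and 20.8 against 8.17 and 7.9998 cpm. The difference missed the threshold on library totals, with only the 2 groups in the fit, and without any single library of MS_E or PLA_E (unadjusted p of 0.163, 0.0608 and 0.0726 to 0.118 by edgeR). Its size there was 1.03, 1.38 and 1.26 to 1.31. Over the settings tried the adjusted p ran from 0.527 to 0.983.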

How the results depend on the processing

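With 2 libraries a group, and shares of miRNA reads that move with a few abundant miRNAs, single libraries and the scaling set most values, and passenger arms with few reads are limited by depth. The smallest adjusted p of a 5p arm, or of miR-10b-3p in MS_E against PLA_E, was 0.316 over all settings. The cause of each change below was not tested, apart from fewer miRNAs or libraries where these are named.

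In MS_E against PLA_E the call of 1 member became 0 on library totals, with a mean of at least 100 counts (which leaves out miR-10b-3p) and with only the 2 groups compared. In MS_E against CIA_B the count rose from 0 to 1 (miR-10b-3p) on totals without miR-10b-5p, TMM without miR-10b-5p, totals without the 10 most abundant, DESeq2, limma-voom, the miR-1 division term and summed precursors. The division term also gave 1 (miR-10b-5p) in PLA_E and in PLA_A against CIA_B, and upper-quartile factors gave 1 (miR-196b-5p) in the interaction. With single libraries left out the count ran from 0 to 1 in MS_E against PLA_E (0 without MS_E replicate 1 or PLA_E replicate 1, and another member in place of miR-10b-3p without MS_E replicate 2, miR-10b-5p, and without PLA_E replicate 2, miR-196b-3p), in MS_E against CIA_B (1, miR-10b-3p, without either PLA_A library) and in PLA_E against CIA_B (1, miR-196b-3p, without PLA_E replicate 2).

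Fold changes near 0 changed sign. miR-196a-5p in MS_E against CIA_B was -0.0047 with DESeq2 size factors, -0.0046 with DESeq2 and -0.0038 with upper-quartile factors. In PLA_A against CIA_B it was 0.30 on library totals, 0.00048 with only the 2 groups and 0.00042 with the division term. In MS_E against PLA_E it was 0.13 on totals without miR-10b-5p, 0.017 on totals without the 10 most abundant, 0.056 with only the 2 groups and 0.0031 with summed precursors, and in MS_A against PLA_A -0.032 on library totals. miR-196b-5p in MS_A against CIA_B was -0.042 with DESeq2 size factors, -0.043 with DESeq2, -0.085 on library totals, -0.099 on totals without miR-10b-5p, -0.077 on totals without the 10 most abundant, -0.0043 with limma-voom and -0.027 with summed precursors. On library totals it was 0.014 in PLA_A against CIA_B and -0.099 in MS_A against PLA_A. In MS_E against CIA_B miR-10a-5p was -0.021 on library totals, -0.0076 with upper-quartile factors, -0.21 with limma-voom and -0.61 with the division term, which also turned miR-10b-5p to -0.25.

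With each library left out in turn, the log2 fold changes that changed sign were those of miR-10a-5p in MS_E (-1.40 to 0.74) and MS_A (-1.47 to 0.65) against CIA_B, in MS_E against PLA_E (-0.69 to 1.73) and in MS_A against PLA_A (-0.80 to 1.59). For miR-10b-5p they were MS_E (-1.22 to 1.12) and MS_A (-1.83 to 0.72) against CIA_B and MS_A against PLA_A (-0.23 to 2.31). For miR-196a-5p they were MS_E (-0.27 to 0.22), PLA_E (-0.069 to 0.072) and PLA_A (-0.28 to 0.17) against CIA_B and MS_E against PLA_E (-0.30 to 0.17). For miR-196b-5p they were PLA_E (-0.17 to 0.63) and MS_A (-0.38 to 0.32) against CIA_B and MS_A against PLA_A (-0.11 to 0.58). Among the log2 ratios, miR-196a-5p to miR-10a-5p ran from -0.40 to 0.55 for 34 days against 1 h and from -0.84 to 0.088 for stimulated against placebo, miR-196a-5p to miR-10b-5p from -0.32 to 0.99 for 34 days against 1 h, and miR-196b-5p to miR-196a-5p from -0.31 to 0.15 for 34 days against 1 h and from -0.49 to 0.11 for after against before therapy. The miR-10b-5p share for 34 days against 1 h ran from -13.0 to 2.74 percentage points. Where a group keeps 1 library, that library is taken to vary like the others.

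The replicate numbers did not pair the libraries, as same-numbered libraries had correlations of their deviations from the group means between -0.55 and 0.60. With the replicate number as a block miR-10b-3p in MS_E against PLA_E was 1.31 and remained called (edgeR adjusted p = 0.901), miR-10a-5p in MS_E against CIA_B turned to -0.042, and no member call changed.

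The counts of all miRNAs called, 23, 2, 4, 25, 14 and 7 in the 6 comparisons, ran over the alternatives with all libraries from 15 to 41 in MS_E, 0 to 9 in PLA_E, 2 to 12 in MS_A and 9 to 47 in PLA_A against CIA_B, from 7 to 24 in MS_E against PLA_E and from 1 to 14 in MS_A against PLA_A. The 12 of the interaction ran from 4 to 17 and the 15 of any difference from 3 to 37.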
